A study of Mus musculus with 12 samples.

Results

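YAP, its paralogue TAZ, the 4 TEAD transcription factors they bind and a set of direct target genes were followed in mouse metaphyseal osteoblasts. The 10 genes were chosen by name for their place in the pathway, though with earlier results of these data known: *Yap1* and *Wwtr1* (which encodes TAZ), *Tead1*, *Tead2*, *Tead3* and *Tead4*, and the targets *Ccn1* (Cyr61), *Ccn2* (Ctgf), *Ankrd1* and *Amotl2*. They are 10 of the 32288 genes and transgenes counted by bulk RNA-seq, and 9 of them passed the filter on low counts in every comparison. The cells were mGFP+ cells sorted from metaphyseal bone, and all 4 groups carried *Osx-CreERT2* with *mTmG* and received tamoxifen, which turns the label of cells that express *Osx* (*Sp7*) from tdTomato to GFP. Juvenile *Osx*+ osteoblasts (4 libraries) came from mice of 3 weeks and adult *Osx*+ osteoblasts (4 libraries) from mice of 8 weeks, each library from 2 pooled males, 2 days after 3 injections of tamoxifen. *c-Myc*-induced osteoblasts (2 libraries) also carried *LSL-tTA* and *Col1a1::TetO-c-Myc*, so that Cre switches on a *c-Myc* transgene, and *c-Myc* + *R172H* osteoblasts (2 libraries) carried a *Trp53-LSL-R172H* allele, a mutant p53, in addition. These induced mice are labelled 3w and listed as 5 weeks old at dissection, 7 days after tamoxifen (2 injections). They had a 5 mm trim of the diaphysis where the others had 2 mm. If tamoxifen was given at the labelled age, 7 days do not reach 5 weeks. The age of the induced mice at dissection is therefore uncertain. The sources differ on their sex, both sexes in the labels and males in the methods of the study. The study gave mice with this inducible transgene, or pregnant females, doxycycline or tetracycline in drinking water until some time before analysis. Whether induced mice were pooled is not stated. Age, number of injections, time after tamoxifen, trim and the added alleles therefore cannot be told apart from *c-Myc* in a comparison of induced with juvenile libraries. Nor can sex, pooling and the antibiotic where they differed.

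YAP and TAZ are coactivators without a DNA-binding domain, and they act on genes through TEAD proteins. The Hippo kinases MST and LATS phosphorylate YAP and TAZ and hold them in the cytoplasm, while a stiff matrix, cell spreading and tension on actin let them enter the nucleus, so their activity is set largely at the protein level, which RNA does not measure. In bone, YAP and TAZ take part in the growth and differentiation of osteoblast-lineage cells, and *Ccn1* and *Ccn2* encode secreted matrix proteins of the same family.

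Promoter sequences were taken from RefSeq (GRCm38.p6; 250 bases before the start of a gene to 50 after it), which held 10 promoters of 7 of the 10 genes. They were searched on both strands for the TEAD core GGAATG, the AP-1 site TGANTCA, the E-box CACGTG, which MYC with MAX can bind, and the CArG box of SRF. The TEAD core was present in promoters of *Yap1*, *Wwtr1*, *Tead3*, *Ccn1*, *Ankrd1* and *Amotl2* and not in that of *Tead2*, against 14.7% of a background of 32851 promoters. That share counts promoters and not genes, and the background leaves a chromosome out. A further promoter of *Tead3* held no core. The E-box was present in the promoter of *Yap1* alone, against 7.15% of the background, and none of the 10 promoters held TGANTCA (7.81% of the background) or a CArG box (1.63%). A match of this kind is a match of letters and no measurement of binding. The promoters of both coactivators, of the TEAD gene with the largest increase and of the most abundant target are shown because the results below turn on these genes. Each is read 5′ to 3′ on the strand of its gene with the matched letters in capitals: in *Yap1* an E-box 163 and a TEAD core 141 bases before the start, in *Wwtr1* a TEAD core 136 bases before the start, in *Ccn1* a TEAD core on the opposite strand, read as CATTCC, 103 bases before the start, and in *Tead2* no match.
Yap1, chr9:8004547-8004846, minus strand: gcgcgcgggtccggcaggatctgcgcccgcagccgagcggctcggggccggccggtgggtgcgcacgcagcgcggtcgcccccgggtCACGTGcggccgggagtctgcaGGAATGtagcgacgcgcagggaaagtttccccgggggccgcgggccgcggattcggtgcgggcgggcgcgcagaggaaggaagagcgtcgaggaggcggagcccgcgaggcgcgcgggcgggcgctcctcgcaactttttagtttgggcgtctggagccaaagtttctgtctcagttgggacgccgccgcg
Wwtr1, chr3:57575861-57576160, minus strand: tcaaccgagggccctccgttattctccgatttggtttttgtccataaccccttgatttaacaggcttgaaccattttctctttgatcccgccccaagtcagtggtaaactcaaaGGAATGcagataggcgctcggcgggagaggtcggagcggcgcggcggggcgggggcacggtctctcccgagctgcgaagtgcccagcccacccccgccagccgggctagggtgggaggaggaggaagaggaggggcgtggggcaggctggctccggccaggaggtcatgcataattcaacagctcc
Tead2, chr7:45215542-45215841, plus strand: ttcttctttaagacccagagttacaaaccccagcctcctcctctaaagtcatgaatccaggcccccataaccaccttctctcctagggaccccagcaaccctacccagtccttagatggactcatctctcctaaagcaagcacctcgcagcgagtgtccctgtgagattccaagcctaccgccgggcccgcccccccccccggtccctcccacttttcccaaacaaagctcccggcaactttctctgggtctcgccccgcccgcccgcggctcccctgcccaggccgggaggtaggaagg
Ccn1, chr3:145649936-145650235, minus strand: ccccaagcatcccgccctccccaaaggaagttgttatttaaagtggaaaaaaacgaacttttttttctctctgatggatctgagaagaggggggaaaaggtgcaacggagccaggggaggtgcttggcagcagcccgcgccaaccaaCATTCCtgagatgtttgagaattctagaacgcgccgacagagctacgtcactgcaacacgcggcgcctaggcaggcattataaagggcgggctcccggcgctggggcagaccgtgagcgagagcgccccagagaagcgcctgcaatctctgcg

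The libraries held 9066154 to 15684412 counts, so that 3 counts, taken as the limit of detection, were worth 0.137 to 0.417 CPM, the count scaled to a common library size with TMM factors over the 12 libraries. *Col1a1*, *Col1a2* and *Gm26917* took 35.2% to 65.3% of the counts of a library, the most in juvenile libraries, and the scaling of counts therefore mattered. Without a composition factor (library totals), the median log2 fold change of all tested genes stood at 0.872 for *c-Myc* over juvenile, 1.12 for *c-Myc* + *R172H* over juvenile, 0.207 for *c-Myc* + *R172H* over *c-Myc* and -0.243 for juvenile over adult, and every change below is relative to the bulk of genes under TMM. *Myc* was at 39.8 to 52.2 CPM in juvenile and adult libraries and at 624 to 748 CPM in the 4 induced libraries. All 8 osteoblast markers passed 3 counts in every library, with a summed level of 395600 to 573300 CPM in juvenile, 229200 to 412800 in adult, 67630 and 90170 in *c-Myc* and 36920 and 38810 in *c-Myc* + *R172H* libraries. *Col1a1* made up nearly all of this sum (385900 of 395600 CPM in juvenile replicate 1). In either induced group all 8 were called lower than in juvenile libraries (25.0% and 26.3% of all genes). Past 2-fold there were 6 (16.0% and 17.9%). *Sp7* went from 227 to 246 CPM in juvenile to 119 to 152 in induced libraries, and *Runx2* from 207 to 250 to 137 to 147. All 10 chondrocyte markers also passed 3 counts in every library, while the summed level of skeletal muscle markers was 0 to 4.86 CPM, that of endothelial markers 0 to 10.3 CPM and that of haematopoietic markers 0.731 to 13.6 CPM. Osteoclast markers, of which 3 of 5 passed 3 counts in every library and *Calcr* and *Ocstamp* were at 0, summed to 203 to 411 CPM in juvenile and adult and 52.2 to 104 CPM in induced libraries. All 6 marrow stromal markers passed 3 counts in every library, with sums of 326 to 651 CPM and 114 to 204 CPM. Of these, 5 were called lower in either induced group over juvenile libraries. The part of these cells in the comparisons with induced libraries was not tested. In bulk samples, fewer cells of a type and less RNA per cell cannot be told apart.

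Of the coactivators, *Yap1* was somewhat higher and *Wwtr1* much lower in the induced osteoblasts, and neither passed the test between ages. *Yap1* (chr9:7931999-8004596, minus strand) stood at 86.1, 78.3, 71.6 and 84.0 CPM in juvenile, 74.0, 81.4, 79.8 and 65.7 in adult, 97.7 and 99.8 in *c-Myc* and 109.8 and 100.2 in *c-Myc* + *R172H* libraries. The 4 induced libraries lay above all 8 others, while the juvenile and adult ranges overlapped. *Wwtr1* (chr3:57455649-57575910, minus strand) stood at 84.5, 74.1, 70.5 and 62.1 CPM in juvenile, 119, 80.0, 84.1 and 85.9 in adult, 25.0 and 26.3 in *c-Myc* and 21.1 and 21.7 in *c-Myc* + *R172H* libraries. Every induced library lay under the lowest juvenile or adult library. By edgeR's quasi-likelihood test with Benjamini-Hochberg adjustment over all tested genes, *Yap1* rose 1.21-fold in *c-Myc* over juvenile libraries (log2 fold change 0.28, SE 0.10, adjusted p = 0.0362) and *Wwtr1* fell 2.89-fold (log2 fold change -1.53, SE 0.14, adjusted p = 2.11e-06). Against the same juvenile libraries, *c-Myc* + *R172H* osteoblasts gave log2 fold changes of 0.40 for *Yap1* (SE 0.10, adjusted p = 0.00532) and -1.76 for *Wwtr1* (SE 0.14, adjusted p = 5.93e-07). The fall of *Wwtr1* passed in all 18 alternative analyses of either comparison, and its log2 fold change with library totals was still -0.71 and -0.73. The rise of *Yap1* passed in 10 of 18 alternatives for *c-Myc*, not in the fit of those groups alone (adjusted p = 0.0713) nor with upper-quartile factors (0.117), and it was lost without juvenile replicate 2 (0.0724) or 3 (0.0528), *c-Myc* replicate 1 (0.128) or 2 (0.177), or *c-Myc* + *R172H* replicate 1 (0.0619) or 2 (0.0593). For *c-Myc* + *R172H* it passed in 17 of 18, the exception being the fit without *c-Myc* + *R172H* replicate 1 (adjusted p = 0.115). Between ages the log2 fold change, juvenile over adult, was 0.08 for *Yap1* (SE 0.12, adjusted p = 0.773), turning to -0.15 with library totals, and -0.35 for *Wwtr1* (SE 0.14, adjusted p = 0.172). The summed chondrocyte markers, set beside *Ccn2* below, were also lower in every induced library. From lowest up, adult replicates ran 2, 3, 4, 1 for both *Wwtr1* and that sum. Juvenile replicates ran 4, 3, 2, 1 for *Wwtr1* and 4, 1, 3, 2 for the sum. The part of these cells in the *Wwtr1* values was not tested.

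Per kilobase of exon, *Yap1* was the lower of the pair in every juvenile and adult library and the higher in every induced one. The *Yap1* to *Wwtr1* ratio of CPM per kb was 0.526, 0.546, 0.524 and 0.698 in juvenile, 0.321, 0.525, 0.490 and 0.395 in adult, 2.02 and 1.96 in *c-Myc* and 2.69 and 2.38 in *c-Myc* + *R172H* libraries. Its mean was 3.47 times higher in *c-Myc* and 4.42 times higher in *c-Myc* + *R172H* than in juvenile libraries, and the scaling of libraries cancels in it. Where the ratio stands against 1 depends on the length used: the exons of *Yap1* join to 9257 bases but its longest transcript has 5282, against 4779 and 4697 for *Wwtr1*. With longest transcripts the group means were 0.988 ± 0.144 in juvenile (SD, n = 4), 0.745 ± 0.159 in adult (SD, n = 4), 3.43 ± 0.0736 in *c-Myc* (SD, n = 2) and 4.36 ± 0.374 in *c-Myc* + *R172H* (SD, n = 2).

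The TEAD genes moved apart from each other. *Tead2* (chr7:45215753-45233644, plus strand) stood at 21.7, 17.8, 15.7 and 23.9 CPM in juvenile, 8.61, 17.4, 15.3 and 13.4 in adult, 47.0 and 44.1 in *c-Myc* and 53.3 and 49.6 in *c-Myc* + *R172H* libraries. All 4 induced libraries lay above every other library, and the juvenile and adult groups overlapped. *Tead2* rose 2.27-fold in *c-Myc* (log2 fold change 1.18, SE 0.16, adjusted p = 4.06e-05, edgeR) and 2.61-fold in *c-Myc* + *R172H* osteoblasts (1.38, SE 0.15, adjusted p = 8.62e-06), and it passed in all 18 alternatives of both. *Tead3* (chr17:28331671-28350817, minus strand) stood at 18.2, 12.3, 7.09 and 8.20 CPM in juvenile, 6.08, 10.1, 5.82 and 10.5 in adult, 5.66 and 4.59 in *c-Myc* and 6.82 and 7.84 in *c-Myc* + *R172H* libraries. Juvenile replicate 1 was the highest of all, the 2 *c-Myc* libraries lay below every other library, and the remaining groups overlapped. *Tead3* fell 2.29-fold in *c-Myc* (log2 fold change -1.19, SE 0.36, adjusted p = 0.0147), which was lost without *c-Myc* replicate 1 (adjusted p = 0.0577), without replicate 2 (0.115) and with library totals (log2 fold change -0.39, adjusted p = 0.428), while *c-Myc* + *R172H* libraries gave -0.65 (SE 0.35, adjusted p = 0.133), turning to 0.35 with library totals.

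*Tead1* and *Tead4* did not pass the test in any comparison with the reported settings, but did in some alternatives. *Tead1* (chr7:112679318-112906807, plus strand) stood at 34.6, 29.8, 21.8 and 31.8 CPM in juvenile, 40.8, 37.4, 28.0 and 35.4 in adult, 24.8 and 26.5 in *c-Myc* and 23.6 and 19.8 in *c-Myc* + *R172H* libraries. The log2 fold changes were -0.27 for juvenile over adult (adjusted p = 0.43), -0.23 for *c-Myc* over juvenile (0.304) and -0.44 for *c-Myc* + *R172H* over juvenile (0.0556), and with library totals the last 2 turned to 0.59 (adjusted p = 0.0358) and 0.59 (0.0319). In *c-Myc* + *R172H* over juvenile libraries *Tead1* was called lower with RLE factors (adjusted p = 0.0399), upper-quartile factors (0.0322), DESeq2 (0.0395), the replicate block (0.0019) and without juvenile replicate 3 (0.0046). In *c-Myc* over juvenile libraries it was called lower with the block (0.0321) and without that library (0.0458). *Tead4* (chr6:128224288-128300823, minus strand) had the lowest level of the family, at 2.47, 1.45, 0 and 0.621 CPM in juvenile, 2.73, 0.903, 2.46 and 1.71 in adult, 0.502 and 0.340 in *c-Myc* and 0.229 and 0.298 in *c-Myc* + *R172H* libraries. These are 0 to 27 counts a library, and its log2 fold changes have SEs of 0.80 to 1.30, so that only a very large change of this gene was detectable at this depth. *Tead4* was called lower with the replicate block in *c-Myc* (log2 fold change -2.21, adjusted p = 0.0258) and *c-Myc* + *R172H* over juvenile libraries (-2.83, 0.0086), and in the latter also without juvenile replicate 3 (-2.51, 0.0267). The induced groups have no replicates 3 and 4, so under the block juvenile replicates 3 and 4 added nothing to these comparisons. *Tead4* had 27 and 14 counts in juvenile replicates 1 and 2, and 0 and 5 in juvenile replicates 3 and 4.

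**Figure D1:**
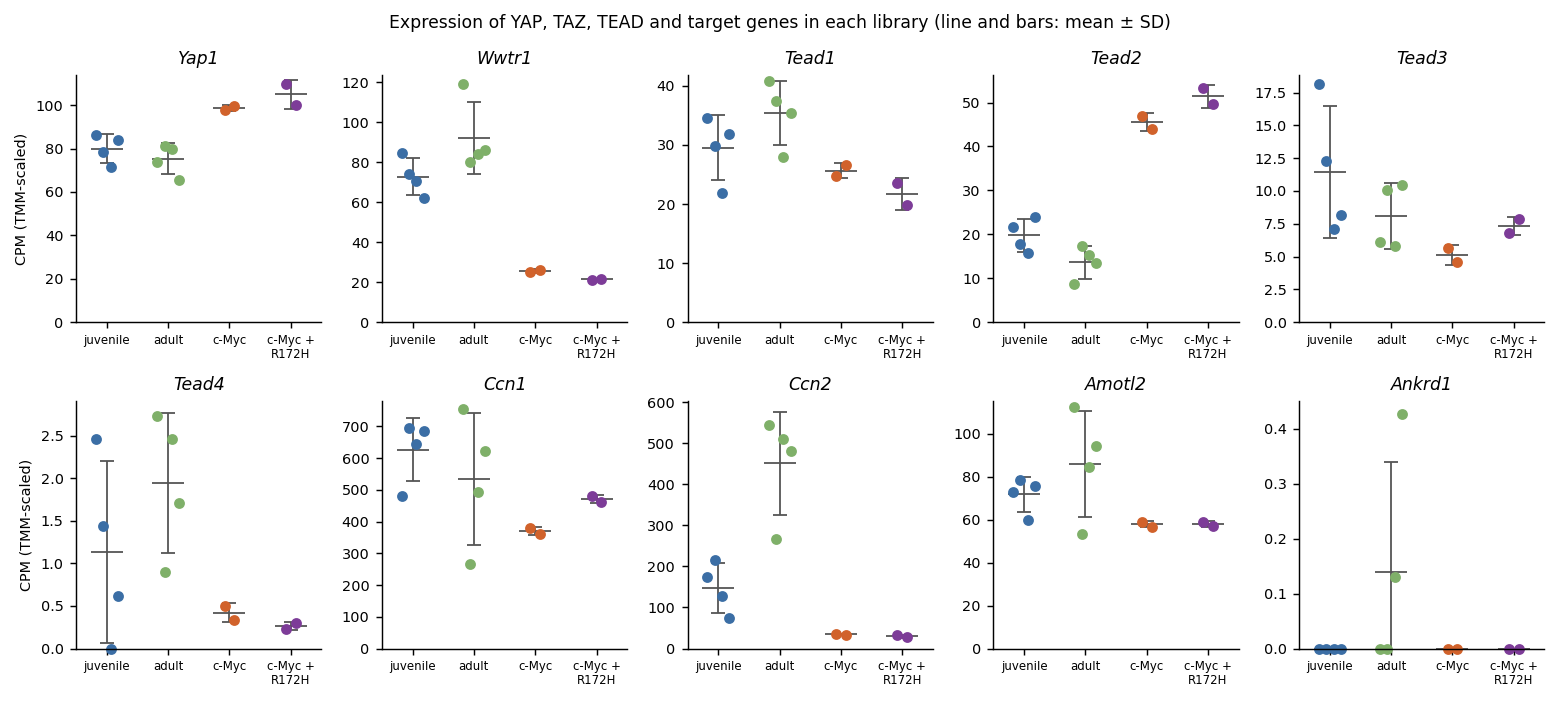
CPM (TMM-scaled, linear axes from 0) of each of the 10 genes in every library, 1 panel per gene, with the group mean as a line and the SD as bars. *Wwtr1* and *Ccn2* are low and *Tead2* is high in all 4 induced libraries, *Ccn2* is highest in the 4 adult libraries, and *Ankrd1* had counts in 2 adult libraries only.

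Set against each other per kilobase of exon, the 4 genes showed a family dominated by *Tead2* after induction. *Tead2* made up 43.2%, 45.6%, 55.2% and 57.1% of the summed TEAD level in juvenile, 27.8%, 44.6%, 46.9% and 37.7% in adult, 77.8% and 77.1% in *c-Myc* and 79.8% and 79.3% in *c-Myc* + *R172H* libraries. *Tead1* made up 26.3 ± 1.31% in juvenile (SD, n = 4) and 36.4 ± 7.01% in adult libraries (SD, n = 4), ranges that did not overlap, and 15.4 ± 1.37% in *c-Myc* (SD, n = 2) and 11.8 ± 0.903% in *c-Myc* + *R172H* libraries (SD, n = 2). The share of *Tead3* was 20.0 ± 5.22%, 16.5 ± 3.80%, 6.21 ± 0.672% and 8.11 ± 1.17% in the same order, and that of *Tead4* at most 11.7% in any library. The summed level was 8.32 ± 1.86 CPM per kb in juvenile, 7.21 ± 0.735 in adult, 12.3 ± 0.485 in *c-Myc* and 13.5 ± 0.626 in *c-Myc* + *R172H* libraries, so the rise of *Tead2* exceeded what the other 3 genes lost under TMM scaling. These shares are descriptions without a test, and with longest transcripts *Tead2* still made up 76.1% and 77.5% in the induced groups and 47.4% and 37.8% in juvenile and adult libraries.

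**Figure D2:**
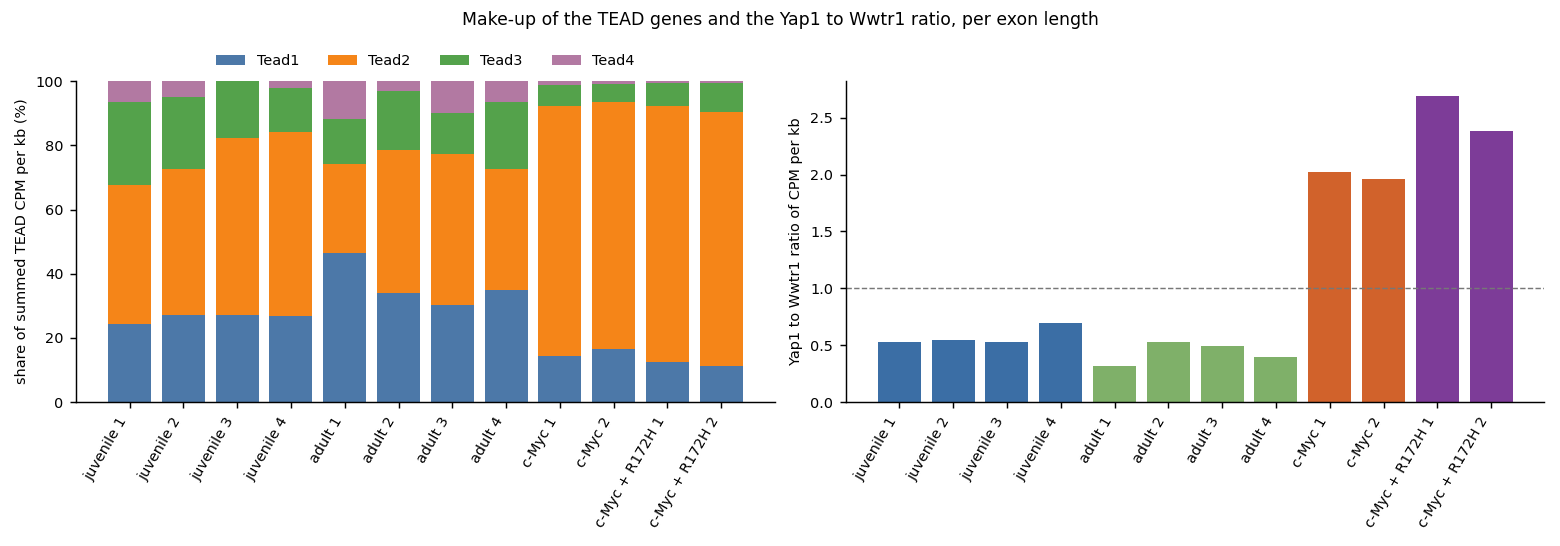
Left, share of each TEAD gene in the summed TEAD level per kilobase of exon (%), stacked for each of the 12 libraries. Right, the *Yap1* to *Wwtr1* ratio of CPM per kb in the same libraries, with a dashed line at 1: the 8 juvenile and adult libraries stand at 0.321 to 0.698 and the 4 induced ones at 1.96 to 2.69.

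The 3 tested target genes were all called lower in both induced groups over juvenile libraries under TMM, where *Ccn1* and *Amotl2* turned with library totals. Between ages *Ccn2* alone passed. *Ccn2* (chr10:24595442-24598683, plus strand), which encodes connective tissue growth factor and is made in quantity by growth plate chondrocytes, stood at 175, 216, 127 and 74.5 CPM in juvenile, 544, 267, 510.3 and 482 in adult, 35.2 and 33.7 in *c-Myc* and 32.0 and 27.0 in *c-Myc* + *R172H* libraries. The adult libraries lay above the juvenile ones and the juvenile above the induced ones, with no overlap at either step. *Ccn2* was 3.06-fold lower in juvenile than in adult osteoblasts (log2 fold change -1.61, SE 0.35, adjusted p = 0.0407, edgeR). That call passed in 9 of 17 alternatives (adjusted p from 0.00113 to 0.130, log2 fold change from -1.85 to -1.39). It was lost without juvenile replicate 1 (adjusted p = 0.0834) or 3 (0.0934), and without adult replicate 1 (0.130), 3 (0.0882) or 4 (0.106). It was also lost with the replicate block (0.129), with library totals (0.0576) and with no filter (0.0696). *Ccn2* fell 4.38-fold in *c-Myc* (log2 fold change -2.13, SE 0.38, adjusted p = 0.00156) and 5.01-fold in *c-Myc* + *R172H* osteoblasts (-2.33, SE 0.39, adjusted p = 0.000927), in all 18 alternatives of both.

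Across the 4 groups, the summed level of the chondrocyte markers moved with *Ccn2*. It was 20840, 25730, 24500 and 8675 CPM in juvenile, 124000, 33990, 54790 and 73810 in adult, 545 and 343 in *c-Myc* and 163 and 159 in *c-Myc* + *R172H* libraries, and the part of these cells in the *Ccn2* values was not tested. *Col2a1* made up most of the sum (16460 of 20840 CPM in juvenile replicate 1). Within groups the orders differed. From lowest up, juvenile replicates ran 4, 3, 1, 2 for *Ccn2* and 4, 1, 3, 2 for the sum. Adult replicates ran 2, 4, 3, 1 and 2, 3, 4, 1. Of the 10 markers, 1 was called lower in juvenile than in adult libraries (3.23% of all genes). All 10 were lower in either induced group over juvenile libraries (25.0% and 26.3%). The gene most like *Ccn2* over the 12 libraries was *Sox9*, the master transcription factor of chondrocytes, with an r of 0.994 for log2 CPM. *Sox9* itself stood at 61.4, 87.0, 51.7 and 22.0 CPM in juvenile, 331, 113, 223 and 258 in adult, and 6.01 to 8.14 in induced libraries. Exons of *Ccn2* share 665 bases with *Gm15270* on the opposite strand, which had 3 to 35 counts a library against 544 to 5368 of *Ccn2*.

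*Ccn1* (chr3:145646976-145649981, minus strand), which encodes CYR61 and is also an immediate early gene induced by serum, was the most abundant of the 10 genes in every group. It stood at 481, 694, 645 and 685 CPM in juvenile, 756, 265, 493 and 624 in adult, 380 and 361 in *c-Myc* and 481 and 462 in *c-Myc* + *R172H* libraries. The adult libraries spanned the whole range of the others, and all 4 induced libraries lay under the lowest juvenile one, the highest by less than 1 CPM. *Ccn1* fell 1.72-fold in *c-Myc* (log2 fold change -0.78, SE 0.13, adjusted p = 0.000233, edgeR) and 1.32-fold in *c-Myc* + *R172H* osteoblasts (-0.40, SE 0.13, adjusted p = 0.0159), though with library totals these turned to 0.069 and 0.66. The fit of all 12 libraries lost both calls (adjusted p = 0.0678 and 0.297), and the second was also lost without *c-Myc* + *R172H* replicate 1 (0.0617) or 2 (0.0901) and with the replicate block (0.104). Between ages the difference was 0.22 on the log2 scale (SE 0.27, adjusted p = 0.737), turning to -0.063 with library totals.

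The summed level of 18 immediate early genes, which cells switch on within minutes of a stimulus, was set beside *Ccn1*. It was 3893, 5078, 5430 and 4881 CPM in juvenile, 5244, 1997, 2834 and 4332 in adult, 2799 and 2988 in *c-Myc* and 3177 and 3209 in *c-Myc* + *R172H* libraries. The 4 adult libraries had the same order in both, from replicate 2, the lowest, through 3 and 4 to replicate 1. The juvenile libraries did not have the same order, and in each induced group the library with more *Ccn1* had the lower sum. The genes most like *Ccn1* were *Map3k3*, *Zfp36*, itself an immediate early gene, and *Armc7*, with r of 0.924, 0.913 and 0.909 over the 12 libraries, and the part of this response in the *Ccn1* values was not tested.

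The 2 CCN genes were also set against each other. Per kilobase, *Ccn1* was 3.90, 4.56, 7.18 and 13.0 times as high as *Ccn2* in juvenile, 1.97, 1.41, 1.37 and 1.84 times in adult, 15.3 and 15.2 times in *c-Myc* and 21.3 and 24.3 times in *c-Myc* + *R172H* libraries. No pair of groups overlapped in this ratio, which is a description without a test. The same held for the share of *Tead1*. Between the 2 induced groups, none of the ratios and shares given here or above overlapped. These groups hold 2 libraries each, and neither CCN gene was called between them with the reported settings.

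*Amotl2* (chr9:102716672-102733418, plus strand), a YAP target whose product in turn binds and restrains YAP, stood at 73.0, 78.5, 59.8 and 75.8 CPM in juvenile, 112, 53.4, 84.4 and 94.1 in adult, 58.8 and 56.8 in *c-Myc* and 58.9 and 56.9 in *c-Myc* + *R172H* libraries. The induced libraries lay just under the lowest juvenile one and inside the adult range. *Amotl2* fell 1.26-fold in *c-Myc* (log2 fold change -0.34, SE 0.12, adjusted p = 0.0334, edgeR) and 1.24-fold in *c-Myc* + *R172H* osteoblasts (-0.30, SE 0.12, adjusted p = 0.048), calls that passed in 9 and 7 of 18 alternatives and that turned to 0.49 and 0.74 with library totals. The first call was lost without either *c-Myc* replicate (adjusted p = 0.129 and 0.172), either *c-Myc* + *R172H* replicate (0.0564 and 0.0558) or juvenile replicate 1 or 2 (0.0573 and 0.075). The second was lost without each library in turn (0.0518 to 0.175) except juvenile replicate 3. *Ankrd1* (chr19:36111961-36120099, minus strand), a cardiac and muscle ankyrin repeat gene used in many cell types as a YAP readout, was close to absent: 1 count in adult replicate 3, 4 counts in adult replicate 4 and 0 in the other 10 libraries, which allows up to 0.137 to 0.417 CPM there, counting error only. It was not tested.

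**Figure D3:**
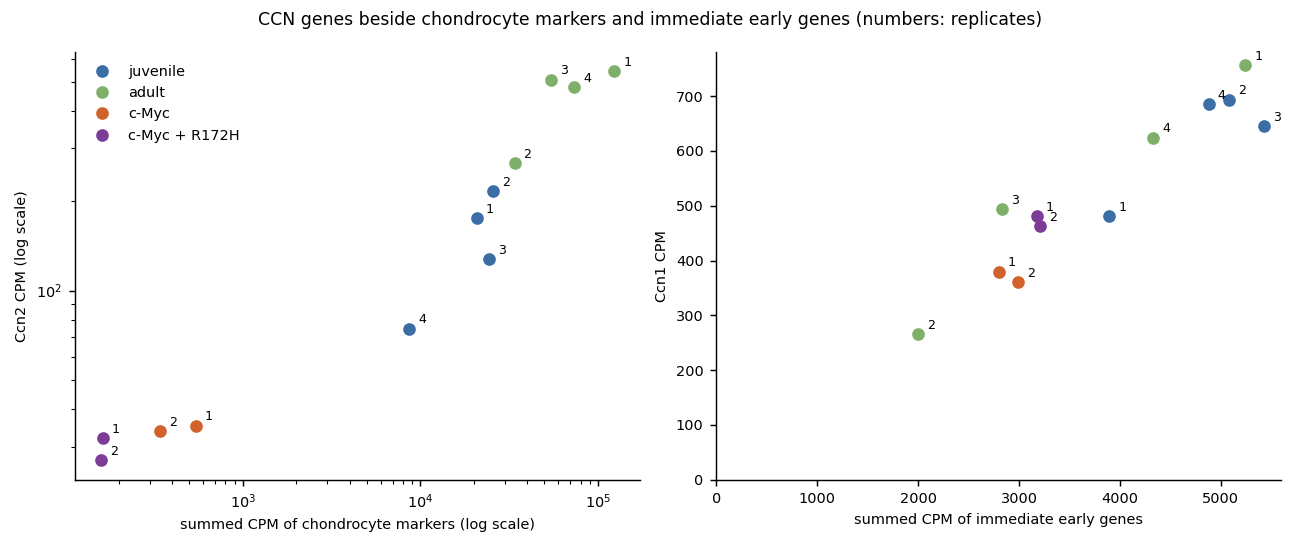
Left, *Ccn2* CPM against the summed CPM of 10 chondrocyte markers on log axes. Right, *Ccn1* CPM against the summed CPM of 18 immediate early genes on linear axes from 0. Points are the 12 libraries with replicate numbers, coloured by group: *Ccn2* rises with the chondrocyte markers from 27.0 CPM in *c-Myc* + *R172H* to 544 CPM in adult libraries, and *Ccn1* runs from 265 to 756 CPM beside the immediate early genes.

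The comparison of juvenile with adult osteoblasts asked how these genes differ between growing and mature bone. Of the 9 tested genes, 1 was lower in juvenile libraries (*Ccn2*) and 0 were higher, where 3.23% of all 11345 tested genes were lower and 1.89% higher. At an unadjusted p under 0.05, *Wwtr1* (lower) and *Tead2* (higher in juvenile, log2 fold change 0.53, SE 0.23) joined it, with adjusted p of 0.172 and 0.203, and DESeq2 also called 1 gene. The share of all genes at that unadjusted limit is not given here, and DESeq2 called 319 of 13260 genes higher and 616 lower. The median log2 fold change of the 9 genes was -0.27, against 0.00 for all tested genes.

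The other genes of the pathway are set against the same 1.89% higher and 3.23% lower of all genes. These shares hold for edgeR calls at the adjusted p, and counts at an unadjusted p have no such share beside them. Of 14 tested genes of the Hippo kinase cassette and its activators, 1 was higher in juvenile libraries, the kinase gene *Map4k4* (log2 fold change 0.46, SE 0.11, adjusted p = 0.0242), and 0 were lower. Of 12 other regulators, 0 were called by edgeR, 6 had an unadjusted p under 0.05 and DESeq2 called 1. Of 16 other YAP and TEAD targets, *Arhgef17* was higher (0.48, SE 0.13, adjusted p = 0.0423). The tissue factor gene *F3* (-2.25, SE 0.53, adjusted p = 0.0262), *Tgfb2*, a ligand of the TGF-beta family (-0.83, SE 0.21, adjusted p = 0.0305), and *Ccdc80*, a secreted matrix protein gene (-0.63, SE 0.17, adjusted p = 0.0416), were lower in juvenile libraries. Their median was -0.11. Of 13 genes of the MRTF and SRF list, which share control by actin with YAP, the smooth muscle genes *Tagln* (-1.73, SE 0.45, adjusted p = 0.0357) and *Acta2* (-1.28, SE 0.33, adjusted p = 0.0308) were lower. The summed level of pericyte and smooth muscle markers, which hold both genes, was 38.4 to 64.1 CPM in juvenile and 70.8 to 77.4 CPM in adult libraries. Without *Acta2*, *Tagln* and *Cnn1*, which are in the MRTF and SRF list too, it was 34.2 to 55.4 and 43.6 to 56.3 CPM, ranges that overlap. None of the 18 immediate early genes was called by edgeR between ages, 7 had an unadjusted p under 0.05, and DESeq2 called 3. These calls between ages depended on single libraries and on the settings: with a library left out, the Hippo list gave 0 to 1 higher, the targets 0 to 1 higher and 0 to 4 lower, and the MRTF and SRF list 0 to 1 lower. The replicate block called 0 genes of the Hippo list and 0 of the targets, and library totals called 0 Hippo genes higher and 1 lower. Over all 11345 genes, the block called 166 higher and 268 lower, and library totals 53 and 793.

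In *c-Myc*-induced over juvenile osteoblasts, the comparison that asked what *c-Myc* changed, the coactivators and the TEAD genes changed in both directions and the 3 tested targets fell. *Yap1* and *Tead2* rose and *Wwtr1*, *Tead3*, *Ccn1*, *Ccn2* and *Amotl2* fell, so that 2 of 9 were higher and 5 lower, where 28.4% and 25.0% of all 12588 tested genes were. With a 2-fold limit added, 1 (*Tead2*) was higher and 3 (*Wwtr1*, *Tead3*, *Ccn2*) were lower, against 18.4% and 16.0%. Under library totals the counts were 4 higher and 2 lower, and the share of called genes that were higher went from 53.2% to 85.9% over all genes. The median log2 fold change of the 9 genes was -0.78, against 0.04 for all tested genes. In *c-Myc* + *R172H* over the same juvenile libraries, 2 of 9 were higher and 4 lower, where 30.4% and 26.3% of all genes were, and past 2-fold 1 was higher and 2 lower, against 19.6% and 17.9%. Here library totals gave 5 higher and 2 lower, the share of higher calls over all genes went from 53.6% to 86.8%, and the median of the 9 genes was -0.44, against 0.08. Both comparisons share the juvenile libraries and are not independent.

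**Figure D4:**
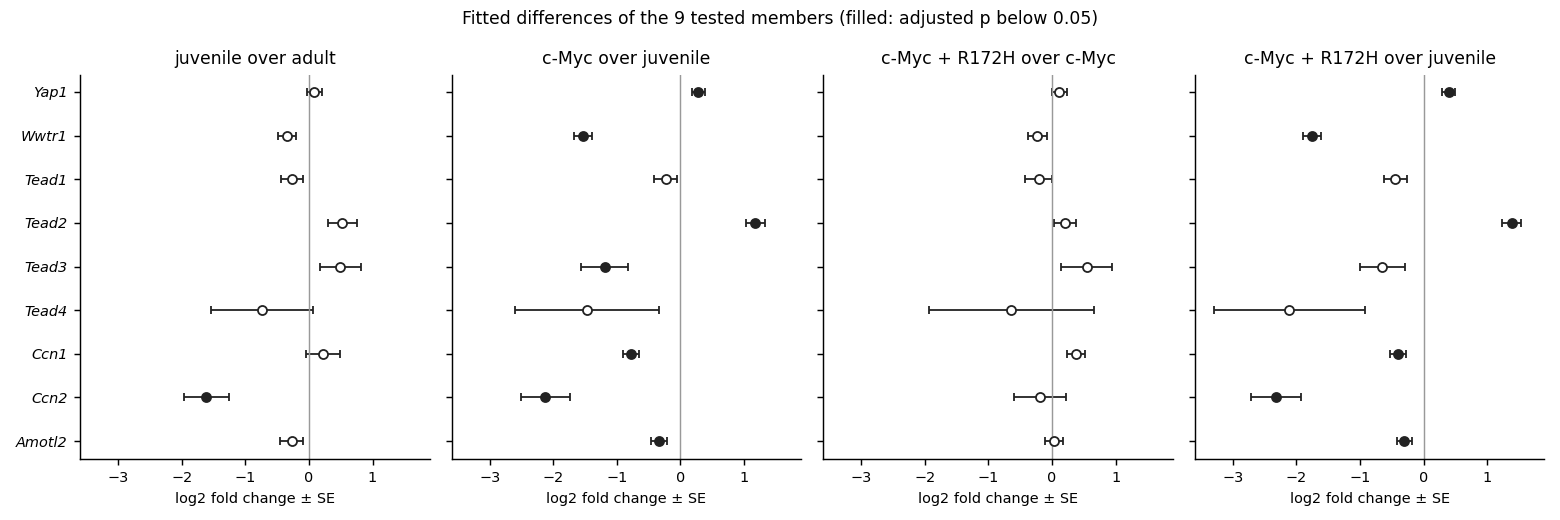
Log2 fold change with its SE (horizontal bars) of the 9 tested genes in the 4 comparisons, from edgeR with TMM scaling, filled where the adjusted p was below 0.05. *Tead2* at 1.18 and 1.38 stands opposite *Wwtr1* at -1.53 and -1.76 and *Ccn2* at -2.13 and -2.33 in the comparisons with juvenile libraries, and no gene is filled in *c-Myc* + *R172H* over *c-Myc*.

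Adding mutant p53 to *c-Myc*, the comparison that asked what R172H contributes, called none of the 9 genes in edgeR, where 0.00794% of all tested genes were higher and 0.461% lower. At an unadjusted p under 0.05 there was 1, *Ccn1*, which was 1.30-fold higher with R172H (log2 fold change 0.38, SE 0.14, adjusted p = 0.707). DESeq2 called 0 and gave no adjusted p for 2, where it called 6 of 7220 genes higher and 195 lower. The share of all genes at an unadjusted p under 0.05 is not given here. *Ccn1* passed in 1 of 18 alternatives, the fit of these 2 groups alone (log2 fold change 0.39, adjusted p = 8.59e-05). The largest difference among the others was -0.64 for *Tead4* (SE 1.30) and 0.54 for *Tead3* (SE 0.40), and *Amotl2* gave 0.03 (SE 0.14), with means of 57.9 and 57.8 CPM. In simulated data of this design, 37.4% of 198 genes changed by a log2 fold change of 1 were called, so a gene that does not pass is not shown to be equal.

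Upstream of YAP, 3 of the 15 tested Hippo genes rose and 3 fell in *c-Myc* over juvenile libraries, where 28.4% of all genes were higher and 25.0% lower. *Wwc1*, whose product KIBRA activates LATS, rose most (log2 fold change 4.35, SE 0.46, adjusted p = 6.57e-06, edgeR), from 0 to 1.37 CPM in juvenile to 15.8 and 17.3 CPM in *c-Myc* libraries. *Stk4*, which encodes the kinase MST1 (0.99, SE 0.16, adjusted p = 0.0002), and *Nf2*, which encodes merlin (0.59, SE 0.10, adjusted p = 0.000271), rose too. *Taok3*, a kinase gene (-1.58, SE 0.23, adjusted p = 0.000106), *Lats2*, the kinase gene that is itself a YAP target (-1.22, SE 0.12, adjusted p = 4.26e-06), and *Frmd6*, an activator of the cassette (-0.80, SE 0.21, adjusted p = 0.00666), fell. *Frmd6* turned with library totals. Of all 12588 tested genes, library totals called 6803 higher and 1115 lower in *c-Myc* and 7668 and 1169 in *c-Myc* + *R172H* over juvenile libraries. *Lats2* went from 62.8 to 79.7 CPM in juvenile to 29.6 and 31.4 CPM in *c-Myc* libraries. Against juvenile libraries, *c-Myc* + *R172H* gave 4 higher and 3 lower (30.4% and 26.3% of all genes), with log2 fold changes of 4.40 for *Wwc1*, 1.02 for *Stk4*, 0.61 for *Nf2*, -1.57 for *Taok3*, -1.21 for *Lats2* and -0.94 for *Frmd6*. Library totals gave 11 higher and 2 lower in *c-Myc* and 12 and 0 in *c-Myc* + *R172H*, and with a library left out 2 to 6 were lower in *c-Myc*.

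The other regulators that passed the test all fell under TMM scaling. Of the 11 tested, 7 were lower in *c-Myc* over juvenile libraries, against 25.0% of all genes. The median over all 11 was -0.48, and 3 of the 7 (*Amotl1*, *Ptpn14* and *Vgll4*) turned with library totals, which gave 4 higher and 2 lower. *Dchs1* and *Fat4*, a protocadherin ligand and receptor pair above the Hippo pathway, had log2 fold changes of -2.73 (SE 0.20, adjusted p = 3.29e-07) and -1.32 (SE 0.19, adjusted p = 8.12e-05), and *Wtip*, an Ajuba-family LIM gene, had -2.12 (SE 0.24, adjusted p = 9.84e-06). *Dchs1* stood at 78.8 to 114 CPM in juvenile, 11.2 and 17.5 in *c-Myc* and 7.46 and 7.64 in *c-Myc* + *R172H* libraries. In *c-Myc* + *R172H* over juvenile libraries 7 were lower as well, against 26.3% of all genes, with *Dchs1* at -3.62, *Wtip* at -2.25 and *Fat1*, another protocadherin gene, at -1.37. There library totals gave 6 higher and 2 lower, and the same 3 genes turned. Over all 12588 tested genes, library totals gave 6803 higher and 1115 lower in *c-Myc* and 7668 and 1169 in *c-Myc* + *R172H*.

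Of 16 other YAP and TEAD targets tested, 10 fell and 1 rose in *c-Myc* over juvenile libraries, against 25.0% and 28.4% of all genes, with a median of -0.84. *Igfbp3*, an IGF-binding protein gene, fell most (log2 fold change -2.92, SE 0.75, adjusted p = 0.00575), from 0.994 to 4.54 CPM in juvenile to 0.365 and 0.567 CPM, followed by the RNA-binding protein gene *Rbms3* (-2.65, SE 0.29, adjusted p = 8.82e-06) and the membrane repair gene *Myof* (-2.23, SE 0.22, adjusted p = 3.49e-06). *Fjx1*, the homologue of fly four-jointed, rose (1.79, SE 0.29, adjusted p = 0.00019). *Lats2* and *Ptpn14* are counted in this list and in a list of regulators. Library totals gave 6 higher and 6 lower, with *Axl*, *Ptpn14* and *Arhgef17* turned. In *c-Myc* + *R172H* over juvenile libraries, 9 fell and 1 rose (26.3% and 30.4% of all genes), led by *Igfbp3* at -2.93, *Rbms3* at -2.91 and *Ccdc80* at -2.81. There library totals gave 6 higher and 4 lower, where 7668 of all genes were higher and 1169 lower.

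*Ccdc80* was the single gene of the pathway lists called between the 2 induced groups. It stood at 269, 281, 298 and 244 CPM in juvenile, 592, 305, 344 and 443 in adult, 59.4 and 69.1 in *c-Myc* and 38.0 and 39.2 in *c-Myc* + *R172H* libraries. It was lower with R172H (log2 fold change -0.70, SE 0.12, adjusted p = 0.0263, edgeR), in 11 of 18 alternatives, and its call was lost without *c-Myc* replicate 2 (adjusted p = 0.258), without either *c-Myc* + *R172H* replicate (0.283 and 0.168) and without juvenile replicate 1 (0.054) or 2 (0.0892), and also with library totals (0.895) and in the fit of all 12 libraries (0.437). Of the Hippo genes and the MRTF and SRF list, 0 were called between the induced groups, 0 at an unadjusted p under 0.05 and 0 by DESeq2. Of the other regulators, 0 were called, 2 at an unadjusted p under 0.05 (*Fat1* and *Dchs1*) and 1 by DESeq2, and of the immediate early genes 0, 4 and 1. No share of all genes at an unadjusted p is given beside these counts.

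**Figure D5:**
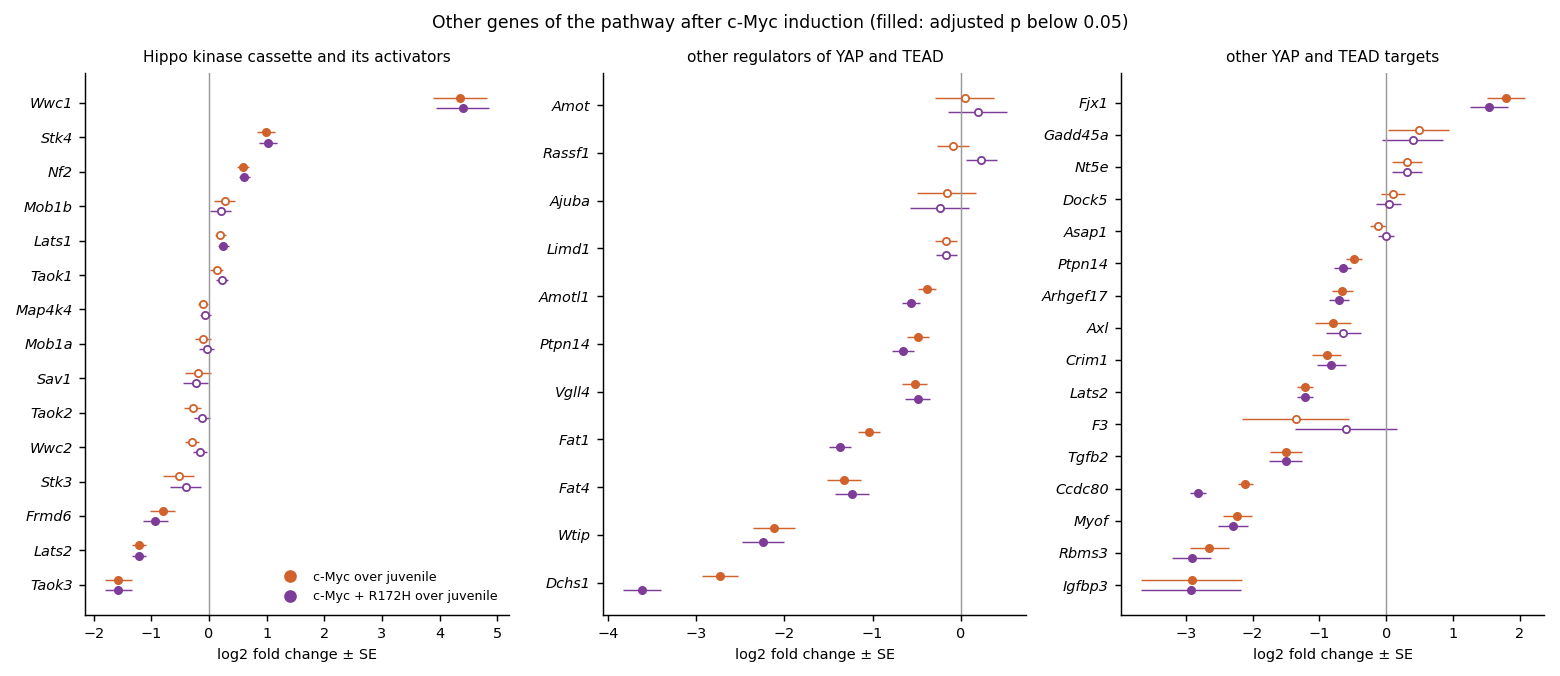
Log2 fold change with SE of the other genes of the pathway in *c-Myc* (orange) and *c-Myc* + *R172H* (purple) over the same juvenile libraries, 1 panel per list, filled where the adjusted p was below 0.05 (edgeR, TMM). *Wwc1* at 4.35 and 4.40 and *Fjx1* at 1.79 and 1.54 rose, and *Dchs1* at -2.73 and -3.62 and most called targets fell.

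More genes fell than rose in the 2 lists that share stimuli with the YAP targets, with TMM factors but not with library totals. In *c-Myc* over juvenile libraries, 6 of 13 MRTF and SRF genes fell, against 25.0% of all genes, led by *Tagln* (log2 fold change -2.23, SE 0.78, adjusted p = 0.0284) and the tropomyosin genes *Tpm2* (-1.75, SE 0.28, adjusted p = 0.0002) and *Tpm1* (-1.55, SE 0.12, adjusted p = 5.76e-07). *Srf* itself (1.13, SE 0.17, adjusted p = 0.000147) and the filamin gene *Flna* (0.41, SE 0.09, adjusted p = 0.00242) rose. Of the 18 immediate early genes, 11 fell, against the same 25.0%, led by *Dusp1* (-2.35, SE 0.14, adjusted p = 7.29e-08), *Klf2* (-1.58, SE 0.20, adjusted p = 2.36e-05) and *Btg2* (-1.43, SE 0.15, adjusted p = 6.18e-06). The AP-1 gene *Fosl1* rose (2.63, SE 0.67, adjusted p = 0.00536), from 0 to 1.64 CPM to 3.65 and 6.81 CPM. In *c-Myc* + *R172H* over juvenile libraries the counts were 2 higher and 6 lower of 13, and 1 higher and 9 lower of 18, against 30.4% higher and 26.3% lower of all genes. With library totals, the MRTF and SRF list gave 7 higher and 3 lower in *c-Myc* and 7 and 1 in *c-Myc* + *R172H*, and the immediate early genes 8 and 4 and then 9 and 4. Of all 12588 tested genes, library totals called 6803 higher and 1115 lower in *c-Myc* and 7668 and 1169 in *c-Myc* + *R172H*. The fewer lower calls of these lists stand beside few lower calls over all genes. None of the called MRTF and SRF genes turned, and 3 immediate early genes did in each comparison. With a library left out, 3 to 6 of the MRTF and SRF genes and 9 to 12 of the immediate early genes fell in *c-Myc*, and 0 to 1 of the latter rose.

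Genes with the pattern most like each of 9 of the 10, all but *Ankrd1* with its few counts, were sought among 13005 genes over the 12 libraries, which fall into groups, so that a high r mostly follows the differences between groups. *Wwtr1* ran with *Pid1*, *Nrk* and the fibronectin gene *Fn1* (r = 0.996, 0.994 and 0.993), and 8.92% of the genes had an r over 0.9 with it. *Tead2* ran with the cofilin gene *Cfl1*, *Ppil1* and *Ilf2* (0.986, 0.980 and 0.975), with 3.63% of genes over 0.9, and *Yap1* with *Med14*, *Ago2* and *Ankrd17* (0.964 each), with 1.40%. After *Sox9*, the genes most like *Ccn2* were *Pde3a* and *Mfge8* (0.991 and 0.988). *Tead1*, *Tead3* and *Amotl2* had few close neighbours, led by *Wipf1* (0.929), *Cgnl1* (0.863) and *9330159F19Rik* (0.932).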

How the data were processed

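The 12 libraries were grouped by their titles. Per the submitters' processing notes, reads were demultiplexed with bcl2fastq 2.20, trimmed with cutadapt 4.6, aligned to mm10 with STAR 2.7.11a and counted with HTSeq 2.0.5, and the authors deposited raw counts per gene without normalization. The strand setting of the counting is not given in the sources used here, which leaves genes with an overlapping partner on the other strand uncertain. Every pair of replicates was further apart than sampling noise allows (chi-square per degree of freedom 5.45 to 136). Whether libraries of a group came from separate litters is not stated, so p-values measure the spread between these libraries only.

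Counts were tested in R 4.3.3 with edgeR 4.0.16 (TMM, filterByExpr, robust quasi-likelihood fit, two-sided F test, Benjamini-Hochberg over all tested genes, 0.05). The age comparison used 8 libraries, and the other comparisons shared 1 fit of the juvenile and the 4 induced libraries. The SE is approximate: the log2 fold change over the root of F. CPM used TMM factors over 12 libraries, and levels per kilobase the union of exons in GENCODE on GRCm38. DESeq2 1.42.0, 3 other scalings, other filters, other sets of libraries, *Col1a1*, *Col1a2* and *Gm26917* left out, a replicate block and each library left out were the alternatives. Outside the 10 genes, up to 3 genes called higher and 3 called lower per list and comparison, those with the largest change, were named; *Sox9*, *Zfp36* and *Myc* were named beside the results they bear on, and values of genes already named were given again in other comparisons. The 10 genes, the lists and the tests were chosen with earlier results of these data known. On simulated data, calls recovered 49.5% of 194 genes changed by a log2 fold change of 1 between ages, 50.5% of 188 for *c-Myc* over juvenile, and 37.4% of 198 for *c-Myc* + *R172H* over *c-Myc*. Depth was 9066154 to 15684412 counts, and intervals and limits cover counting error only.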

Additional observations from a re-analysis of the deposited data

Results flagged for a closer look

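In groups of 4 libraries, the gap of the highest or lowest library to its neighbour was set against the range of the group, for the 10 genes and the ratios and shares above, 34 groups in all. This marked 3 values, and chance marks about 1 in 20 groups. *Wwtr1* stood at 119 CPM in adult replicate 1, with a gap of 0.849 of the range, and that library also had the highest summed chondrocyte markers (124000 CPM). The *Tead1* share of the TEAD genes was 24.4% in juvenile replicate 1 (gap 0.935 of the range), the library in which *Tead3* was highest. The *Yap1* to *Wwtr1* ratio was 0.698 in juvenile replicate 4 (gap 0.877 of the range), the library with the lowest *Wwtr1* and the lowest chondrocyte markers of its group. *Ccdc80* differed between the 2 induced groups, with a log2 fold change of -0.70 in edgeR (adjusted p = 0.0263, lower in both *c-Myc* + *R172H* libraries). No group carried R172H without *c-Myc*. A changed response to *c-Myc* and an effect of the R172H allele alone therefore cannot be told apart. The part of other cells in these values was not tested.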

How the results depend on the processing

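The 9 tested genes gave 628 values under the alternatives, of which 13 changed sign, 11 with library totals and 2 with a library left out. With library totals the log2 fold change, juvenile over adult, was -0.15 for *Yap1* and -0.063 for *Ccn1*. For *c-Myc* over juvenile it was 0.59 for *Tead1*, 0.069 for *Ccn1* and 0.49 for *Amotl2*. For *c-Myc* + *R172H* over juvenile it was 0.59 for *Tead1*, 0.35 for *Tead3*, 0.66 for *Ccn1* and 0.74 for *Amotl2*, and over *c-Myc* it was 0.0017 for *Tead1* and 0.015 for *Ccn2*. Over *c-Myc*, *Amotl2* ranged from -0.017 to 0.032 with a library left out.

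The number of genes called lower between ages was 0 in place of 1 with library totals, with no filter and with the replicate block, and 0 to 1 with a library left out. For *c-Myc* over juvenile, 2 called higher became 4 with library totals and 1 with upper-quartile factors or the fit of the 2 groups alone, and 1 to 2 with a library left out. The 5 called lower became 2 with library totals, 3 in the fit of all 12 libraries and 7 with the replicate block, and 3 to 6 with a library left out. For *c-Myc* + *R172H* over juvenile, 2 called higher became 5 with library totals and 1 to 2 with a library left out. The 4 called lower became 2 with library totals or all 12 libraries, 5 with RLE or upper-quartile factors or DESeq2 and 6 with the replicate block, and 2 to 7 with a library left out, the 7 without juvenile replicate 3. Over *c-Myc*, 0 called higher became 1 in the fit of the 2 groups alone.

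Over all genes, the alternatives called 53 to 461 higher and 199 to 793 lower for juvenile over adult, where the report's settings called 214 and 367. The ranges were 2624 to 6803 and 1115 to 3640 for *c-Myc* over juvenile (3577 and 3149), 2748 to 7668 and 1169 to 3731 for *c-Myc* + *R172H* over juvenile (3832 and 3311), and 0 to 189 and 7 to 440 for *c-Myc* + *R172H* over *c-Myc* (1 and 58). Over *c-Myc*, library totals moved the share of calls that were higher from 1.69% to 8.33%, and between ages from 36.8% to 6.26%.

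The replicate numbers of the titles gave no sign of pairing between ages: deviations of same-numbered juvenile and adult libraries correlated at -0.048 to 0.0372. The highest r between the ages was 0.107, for juvenile replicate 4 with adult replicate 2. Adult libraries carry other numbers in their library names than in their titles, and pairing by those names was not tested. Same-numbered libraries of the induced groups gave 0.131. Deviations in a group of 2 mirror each other, so this value cannot show or exclude pairing. With the replicate block, all-gene calls were 166 higher and 268 lower between ages, and 30 and 296 for *c-Myc* + *R172H* over *c-Myc*. In comparisons of induced with juvenile libraries, juvenile replicates 3 and 4 have no induced library of the same number. Under the block those comparisons therefore rest on replicates 1 and 2 alone. Not every library correlated best with its own number. In fits with no filter the prior degrees of freedom were 605 or infinite, against 7.18 and 11.1 in the fits reported. With 2 libraries an arm, a left-out library leaves 1 that is assumed to vary like the others. Depth limits *Tead4* and *Ankrd1*. The causes of these changes were not tested.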
